A study of Mus musculus with 9 samples.

Results

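The genes described here are 10 mouse genes of fatty acid and cholesterol storage, taken by name from knowledge of lipid droplets: the nuclear receptor gene Pparg, the droplet coat genes Plin2 and Plin3, the fatty acid binding protein genes Fabp4 and Fabp5, the esterification genes Soat1, Dgat1 and Dgat2, and the lipolysis genes Pnpla2 and Mgll. The choice was made with earlier results of these data known. The table lists 55536 gene IDs, and all 10 genes were found in it and passed the filter on low counts, which left 13815 genes for testing. They were measured by RNA-seq in bone marrow derived macrophages (BMDM) of wild-type genotype, grown from marrow of male mice aged 6 to 12 weeks with 25 ng/mL M-CSF, the macrophage growth factor, over 6 days in medium with 10% serum. The cells then received, for 18 hours, exosomes (small vesicles shed by cells) from BMDM of ApoE-deficient mice at 2e+09 particles/mL, exosomes from BMDM of wild-type mice at the same dose, or PBS, the vehicle. Each of the 3 groups had 3 libraries, called biological replicates in the series' design text. No source used here says whether a replicate is a separate mouse or exosome preparation, and p-values therefore reflect only how much the libraries of a group vary, which may be technical. Only the exosome donors, not the cells sequenced, lacked ApoE, the lipid carrier that macrophages secrete. The strain and the form of the Apoe mutation are not stated in the labels.

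Macrophages keep surplus fatty acids and cholesterol as triacylglycerol and cholesteryl ester in lipid droplets, and a macrophage full of droplets is the foam cell of the atherosclerotic plaque. SOAT1 esterifies cholesterol, DGAT1 and DGAT2 catalyse the last step of triacylglycerol synthesis, and perilipins cover the droplet surface. ATGL, encoded by Pnpla2, starts the breakdown of triacylglycerol, and monoacylglycerol lipase, encoded by Mgll, ends it. FABP4 and FABP5 carry fatty acids through the cytosol. PPAR-gamma, encoded by Pparg, is activated by fatty acid ligands and binds DNA together with RXR. Fabp4 and Plin2 are among its textbook target genes.

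Of these genes, Fabp4, Fabp5, Soat1 and Plin3 were higher after either kind of exosome than after PBS. Plin2 passed the test for wild-type exosomes, and was 7.17% higher after ApoE-deficient exosomes without passing it. The increases were small, between 9.78% for Soat1 and 35.5% for Fabp5 among those that passed after wild-type exosomes. Pparg, Pnpla2, Dgat1, Dgat2 and Mgll did not pass in any comparison. No gene of the 10 passed between the exosomes of ApoE-deficient and wild-type donors.

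The promoters of 3 of the genes that rose are shown because Plin2, Plin3 and Soat1 moved in the same direction and have a RefSeq start site in the sequence table. Of the 10 genes, 6 had an entry there, with 9 windows in all (Pparg had several). Fabp4, Fabp5, Dgat1 and Dgat2 had none. Each line gives the bases upstream of the start, 5′ to 3′ on the gene's strand, from RefSeq in GRCm38.p6, without bases inside an annotated exon. Capitals mark matches, on either strand, to the nuclear receptor motif AGGTCA, the GC box GGGCGG and the CCAAT box CCAAT.
Plin2: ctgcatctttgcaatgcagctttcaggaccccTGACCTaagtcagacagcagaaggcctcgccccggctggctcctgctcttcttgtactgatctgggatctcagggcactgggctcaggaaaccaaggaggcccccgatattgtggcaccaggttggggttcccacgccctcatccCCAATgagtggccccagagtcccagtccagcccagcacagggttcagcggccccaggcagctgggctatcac
Plin3: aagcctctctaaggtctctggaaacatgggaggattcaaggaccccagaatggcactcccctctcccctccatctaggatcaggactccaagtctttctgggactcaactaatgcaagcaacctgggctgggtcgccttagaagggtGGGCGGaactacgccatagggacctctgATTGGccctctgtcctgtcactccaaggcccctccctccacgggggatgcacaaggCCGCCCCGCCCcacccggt
Soat1: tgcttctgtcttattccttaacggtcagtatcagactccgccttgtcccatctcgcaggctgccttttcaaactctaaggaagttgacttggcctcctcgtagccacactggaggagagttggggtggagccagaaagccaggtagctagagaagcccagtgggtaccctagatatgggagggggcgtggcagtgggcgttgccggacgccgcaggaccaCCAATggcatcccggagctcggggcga

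The Plin2 bases lie at chr4:86670061-86670309, those of Plin3 at chr17:56290512-56290761 and those of Soat1 at chr1:156474332-156474578, all on the minus strand. Those of Plin3 lie outside its exons but inside the gene span used for the counts (56277476 to 56292873). Its RefSeq start is thus not the outermost annotated start. Positions count back from the base before the start, which is -1, so the last printed base is at -2 in Plin2, where 1 base inside an exon was left out, at -4 in Soat1, where 3 were left out, and at -1 in Plin3. In Plin2 the first capitals, with a first base at -218, are AGGTCA read on the opposite strand, and the second, at -73, are a CCAAT box. Plin3 holds 3 GC boxes, with first bases at -103, -19 and -14, of which the last 2 overlap, and a CCAAT box at -75. Soat1 holds a CCAAT box at -30. Of 32817 RefSeq windows of 250 bases, 14.0% hold AGGTCA, 32.7% a GC box and 33.8% a CCAAT box. The exact PPAR-RXR element AGGTCANAGGTCA, which contains AGGTCA at either end, is in 0.0335% of the windows and in none of the 9 windows of these genes. At so low a share its absence from 9 windows is uninformative, and inexact or more distant elements were not searched. These matches describe letters in short windows and do not show binding.

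Each library held 28581306 to 35929596 counts, with 17150 to 18680 genes detected. In a principal component analysis, replicate 3 of wild-type exosomes stood apart on component 1 (57.5, against -16.8 to 3.43 for the others). Replicate 2 of wild-type exosomes and replicate 2 of ApoE-deficient exosomes stood apart on component 2, at -45.4 and 38.0 against -7.07 to 17.8. Among the 10 genes, replicate 3 of wild-type exosomes was the highest library for 5 (Pparg, Plin3, Fabp4, Fabp5 and Mgll), and replicate 2 of PBS was the lowest for 5 (Plin3, Fabp4, Soat1, Pnpla2 and Mgll). No call against PBS among the 10 genes ended without replicate 2 of either exosome group. Without replicate 3 of wild-type exosomes, the calls of Plin3 and Fabp4 for those exosomes ended (edgeR adjusted p = 0.0729 and 0.223). Apoe itself, which the wild-type recipients can transcribe, was at 18714 to 20153 CPM in the 9 libraries.

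Levels are given as CPM, counts relative to the library total after scaling with TMM factors. Comparisons between genes use RPKM, that is CPM per kilobase of annotated exon. A gene passed the test when the adjusted p (edgeR's quasi-likelihood test with Benjamini-Hochberg adjustment over the 13815 genes) was under 0.05, and errors of log2 fold changes are standard errors. The lowest p that an exact permutation test can give for 3 libraries against 3 is 0.1, and none was run. In bulk RNA, more cells that express a gene and more RNA per cell cannot be told apart.

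**Figure D1:**
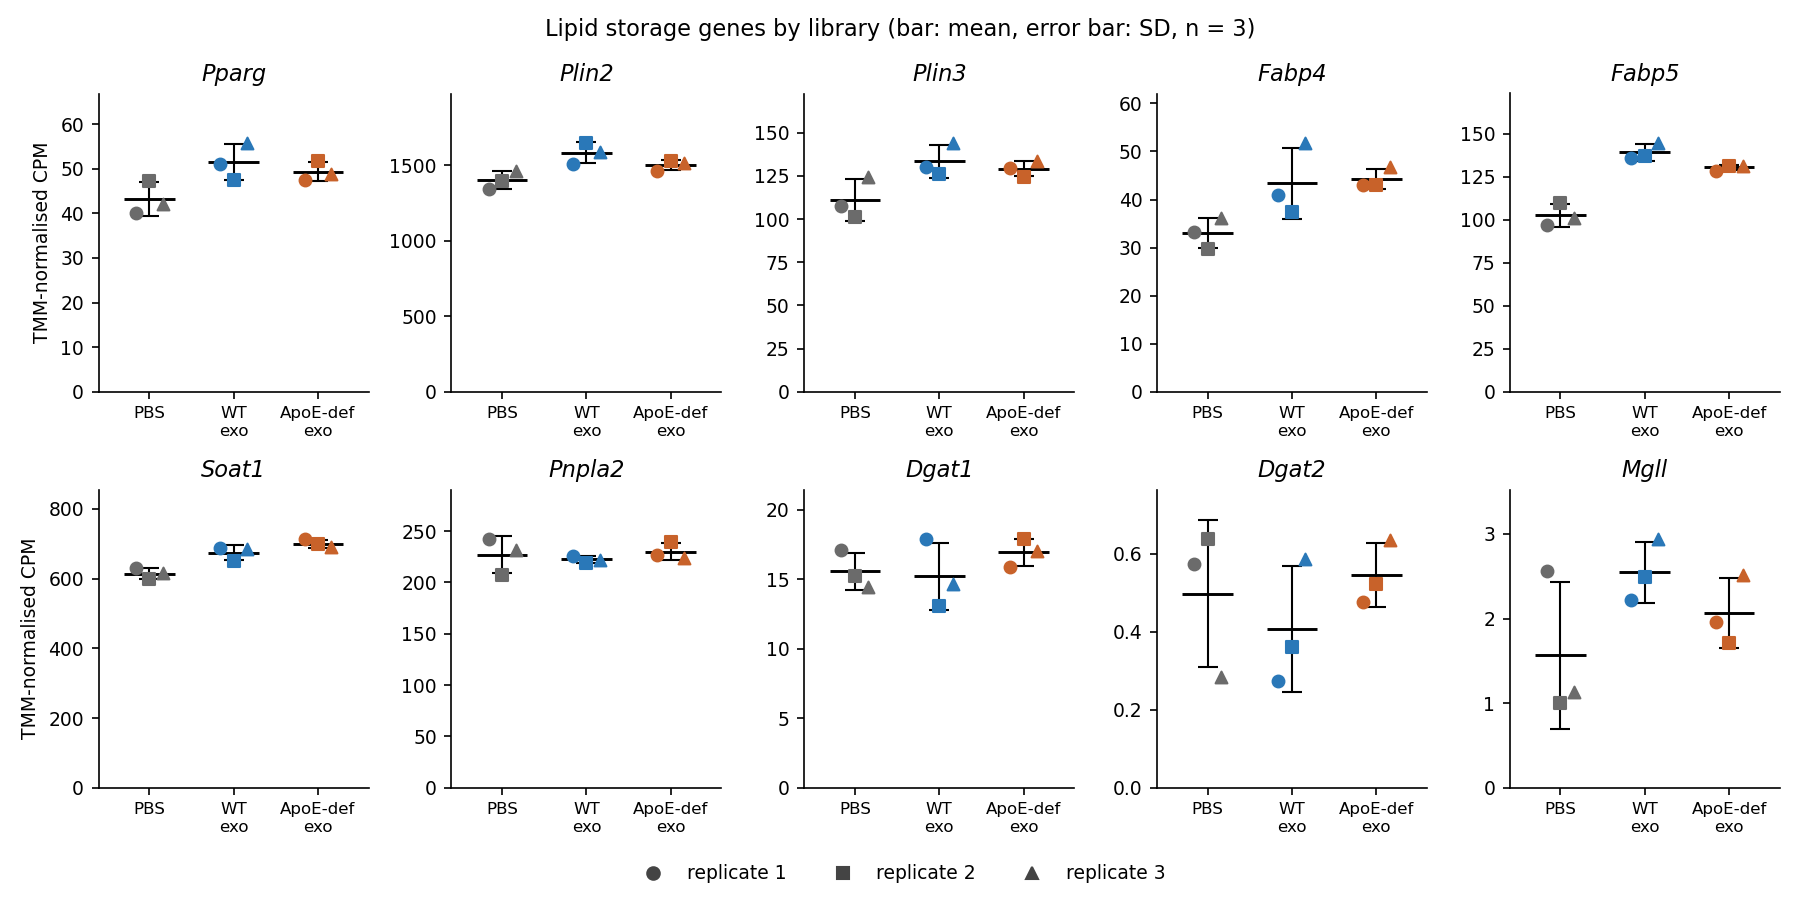
TMM-normalised CPM (y axis, from 0) of the 10 genes in each of the 9 libraries, by treatment (x axis), with a symbol per replicate number, the mean as a bar and the SD as an error bar (n = 3). All libraries of both exosome groups lie above all PBS libraries for Pparg, Plin3, Fabp4, Fabp5 and Soat1, and the groups overlap for Pnpla2, Dgat1, Dgat2 and Mgll.

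Among the droplet coat genes, Plin3 rose with both exosomes. Plin3 (ENSMUSG00000024197, chromosome 17, 56277476 to 56292873, minus strand, GRCm38) encodes a perilipin found both in the cytosol and on new droplets. It was at 107.6, 101.1 and 124.4 CPM in PBS replicates 1 to 3, at 130.1, 126.0 and 143.9 CPM after wild-type exosomes and at 129.6, 124.6 and 133.5 CPM after ApoE-deficient exosomes. All 6 exosome libraries lay above the PBS libraries, but the highest PBS library came within 1 CPM of the lowest exosome library. The log2 fold change was 0.26 ± 0.060 for wild-type exosomes (95% interval of the increase 10.4% to 30.5%; edgeR adjusted p = 0.00473) and 0.22 ± 0.060 for ApoE-deficient exosomes (16.3%, with an upper bound of 26.5%; edgeR adjusted p = 0.0236). For wild-type exosomes, the call of Plin3 ended when replicate 2 of PBS was left out (edgeR adjusted p = 0.0788), and likewise for replicate 3 of wild-type exosomes (0.0729). For ApoE-deficient exosomes it ended without replicate 1 or 3 of those exosomes (edgeR adjusted p = 0.0925 and 0.153) and without replicate 1 or 2 of PBS (0.114 and 0.246).

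Plin2 (ENSMUSG00000028494, chromosome 4, 86648386 to 86670060, minus strand) encodes the main perilipin of macrophage droplets. It was at 1343, 1399 and 1464 CPM after PBS, at 1510, 1647 and 1591 CPM after wild-type exosomes and at 1463, 1527 and 1518 CPM after ApoE-deficient exosomes. The libraries of wild-type exosomes all lay above those of PBS, whereas the lowest library of ApoE-deficient exosomes lay just below the highest of PBS. The increase of Plin2 after wild-type exosomes was 0.17 ± 0.032 on the log2 scale, or 12.9% (7.94% to 18.1%; edgeR adjusted p = 0.000343), and its call held in all 16 alternatives run. After ApoE-deficient exosomes Plin2 had a log2 fold change of 0.10 ± 0.032, or 7.17% (2.47% to 12.1%), with an edgeR adjusted p of 0.0721. That value passed with limma-voom (adjusted p = 0.0293), with a filter of 1 CPM (edgeR adjusted p = 0.0412), and without replicate 3 of PBS (0.0131) and without replicate 2 of wild-type exosomes (0.0454). Plin2 missed the threshold with DESeq2 (adjusted p = 0.0551), and in edgeR with RLE scaling (adjusted p = 0.0781) and with no filter (0.0549). Without replicate 1 of PBS the edgeR adjusted p was 0.38. Whether Plin2 passed thus depends on these choices. The near-identical sequence Gm12551, which matches 416 bases of Plin2 at 90.1%, had 0 to 6 counts per library against 39823 to 52447 for Plin2.

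The fatty acid binding protein genes had the larger increases among the genes that passed. Fabp5 (ENSMUSG00000027533, chromosome 3, 10012548 to 10016607, plus strand), which encodes the epidermal-type binding protein that macrophages also make, was at 96.87, 109.9 and 100.9 CPM after PBS. It was at 135.7, 137.1 and 144.5 CPM after wild-type exosomes and at 128.5, 131.5 and 131.2 CPM after ApoE-deficient exosomes. The 3 groups did not overlap, with PBS lowest and wild-type exosomes highest. Against PBS the log2 fold change of Fabp5 was 0.44 ± 0.051 for wild-type exosomes (35.5%, 26.2% to 45.6%; edgeR adjusted p = 2.12e-07) and 0.35 ± 0.051 for ApoE-deficient exosomes (27.1%, 18.3% to 36.5%; edgeR adjusted p = 1.06e-05). By p-value Fabp5 ranked 23 of the 13815 genes for wild-type exosomes and 92 for ApoE-deficient exosomes. Both calls held in all 16 alternatives. Without replicate 3 of wild-type exosomes, and in every other run that left out a library, the adjusted p of Fabp5 for wild-type exosomes was at most 9.45e-06. A search of annotated transcripts found 5 near-identical copies of Fabp5 (Gm6166, Gm14328, Gm6100, Fabp5l2 and Gm13998, at 93.6% to 98.3% identity). Per library, 0 to 13 counts were assigned to each of them, against 2872 to 4594 for Fabp5. How reads that match several copies were assigned is not stated in the labels.

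Fabp4 (ENSMUSG00000062515, chromosome 3, 10204088 to 10208576, minus strand), the adipocyte-type binding protein gene that is also active in macrophages, was at 33.15, 29.76 and 36.18 CPM after PBS. It was at 40.93, 37.42 and 51.72 CPM after wild-type exosomes and at 43.12, 42.95 and 46.74 CPM after ApoE-deficient exosomes. All exosome libraries lay above all PBS libraries, and replicate 3 of wild-type exosomes was well above the others of its group. The log2 fold change of Fabp4 was 0.42 ± 0.097 for ApoE-deficient exosomes (34.0%, 16.9% to 53.7%; edgeR adjusted p = 0.00511) and 0.39 ± 0.098 for wild-type exosomes (31.2%, 14.4% to 50.5%; edgeR adjusted p = 0.0120). Without replicate 3 of wild-type exosomes the latter was 0.25 with an edgeR adjusted p of 0.223, a log2 value smaller by more than 1.5 times. Without replicate 2 of PBS the edgeR adjusted p of Fabp4 was 0.0628 for ApoE-deficient exosomes and 0.107 for wild-type exosomes.

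Of the esterification genes, only Soat1 passed. Soat1 (ENSMUSG00000026600, chromosome 1, 156424525 to 156474331, minus strand) encodes the enzyme that makes cholesteryl ester in macrophages. It was at 629.8, 599.1 and 615.0 CPM after PBS, at 687.4, 650.9 and 686.0 CPM after wild-type exosomes and at 713.1, 698.4 and 690.4 CPM after ApoE-deficient exosomes. The 3 groups did not overlap, and here the libraries of ApoE-deficient exosomes were highest. The log2 fold change of Soat1 was 0.19 ± 0.032 for ApoE-deficient exosomes (14.0%, 9.02% to 19.2%; edgeR adjusted p = 8.43e-05), a call that held in all 16 alternatives. For wild-type exosomes it was 0.13 ± 0.032 (9.78%, 5.00% to 14.8%; edgeR adjusted p = 0.00701), and that call ended without replicate 2 of PBS (edgeR adjusted p = 0.0613) and without replicate 1 of wild-type exosomes (0.0503).

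Dgat1 (ENSMUSG00000022555, chromosome 15, 76502015 to 76511953, minus strand) encodes an acyltransferase of the endoplasmic reticulum. It was at 17.07, 15.21 and 14.47 CPM after PBS, at 17.87, 13.09 and 14.65 CPM after wild-type exosomes and at 15.88, 17.88 and 17.02 CPM after ApoE-deficient exosomes, and the groups overlapped. Its difference from PBS was -2.32% for wild-type exosomes, with an interval of -19.1% to 17.9%, and 8.64% for ApoE-deficient exosomes, with an interval of -9.91% to 31.0%. Changes of the size seen for Soat1 lie inside both intervals. Dgat2 (ENSMUSG00000030747, chromosome 7, 99153658 to 99182719, minus strand), whose product acts at the droplet surface, had 9 to 22 counts per library, or 0.274 to 0.638 CPM. A change in Dgat2 was not detectable at this depth, since its interval for ApoE-deficient exosomes against PBS ran from -67.6% to 271%.

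The lipolysis genes did not pass. Pnpla2 (ENSMUSG00000025509, chromosome 7, 141455198 to 141460743, plus strand) was at 242.1, 207.4 and 232.0 CPM after PBS, at 226.2, 219.3 and 221.8 CPM after wild-type exosomes and at 226.9, 239.8 and 223.6 CPM after ApoE-deficient exosomes. The PBS libraries spanned the range of both exosome groups. The difference of Pnpla2 from PBS was -2.08% for wild-type exosomes (interval -8.11% to 4.35%; edgeR adjusted p = 0.867) and 1.28% for ApoE-deficient exosomes (-4.95% to 7.92%; edgeR adjusted p = 0.942). For Pnpla2 these intervals leave out increases of the size measured for Fabp4, Fabp5 and Plin3. Mgll (ENSMUSG00000033174, chromosome 6, 88724412 to 88828360, plus strand) was at 2.56, 1.00 and 1.13 CPM after PBS, at 2.22, 2.49 and 2.94 CPM after wild-type exosomes and at 1.96, 1.71 and 2.52 CPM after ApoE-deficient exosomes. Replicate 1 of PBS reached the level of the exosome libraries while the other PBS libraries were lower. With 33 to 90 counts per library, the log2 fold change of Mgll was 0.71 ± 0.40 for wild-type exosomes (edgeR adjusted p = 0.460) and 0.40 ± 0.40 for ApoE-deficient exosomes (edgeR adjusted p = 0.791). Leaving out a library moved these values between 0.47 (without replicate 2 of PBS) and 1.25 (without replicate 1 of PBS) for wild-type exosomes, and between 0.17 and 0.95 for ApoE-deficient exosomes, at the same libraries. The antisense gene Gm26588 overlaps 3.29% of the exon length of Mgll, and the counting is not stated to use strand. The exons of the remaining 9 genes overlap no exon of another gene.

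Pparg (ENSMUSG00000000440, chromosome 6, 115360951 to 115490399, plus strand) was at 39.97, 47.31 and 42.18 CPM after PBS. It was at 51.13, 47.56 and 55.70 CPM after wild-type exosomes and at 47.35, 51.61 and 48.91 CPM after ApoE-deficient exosomes. Every exosome library lay above every PBS library, although the gap to replicate 2 of PBS was under 1 CPM. The log2 fold change of Pparg was 0.25 ± 0.081 for wild-type exosomes (19.2%, 6.38% to 33.6%; edgeR adjusted p = 0.0705) and 0.19 ± 0.081 for ApoE-deficient exosomes (14.1%, 1.85% to 27.9%; edgeR adjusted p = 0.257), so neither passed. For wild-type exosomes it passed with DESeq2 (adjusted p = 0.0425), and in edgeR without replicate 2 of PBS (adjusted p = 0.0315) and without replicate 2 of wild-type exosomes (0.0413).

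**Figure D2:**
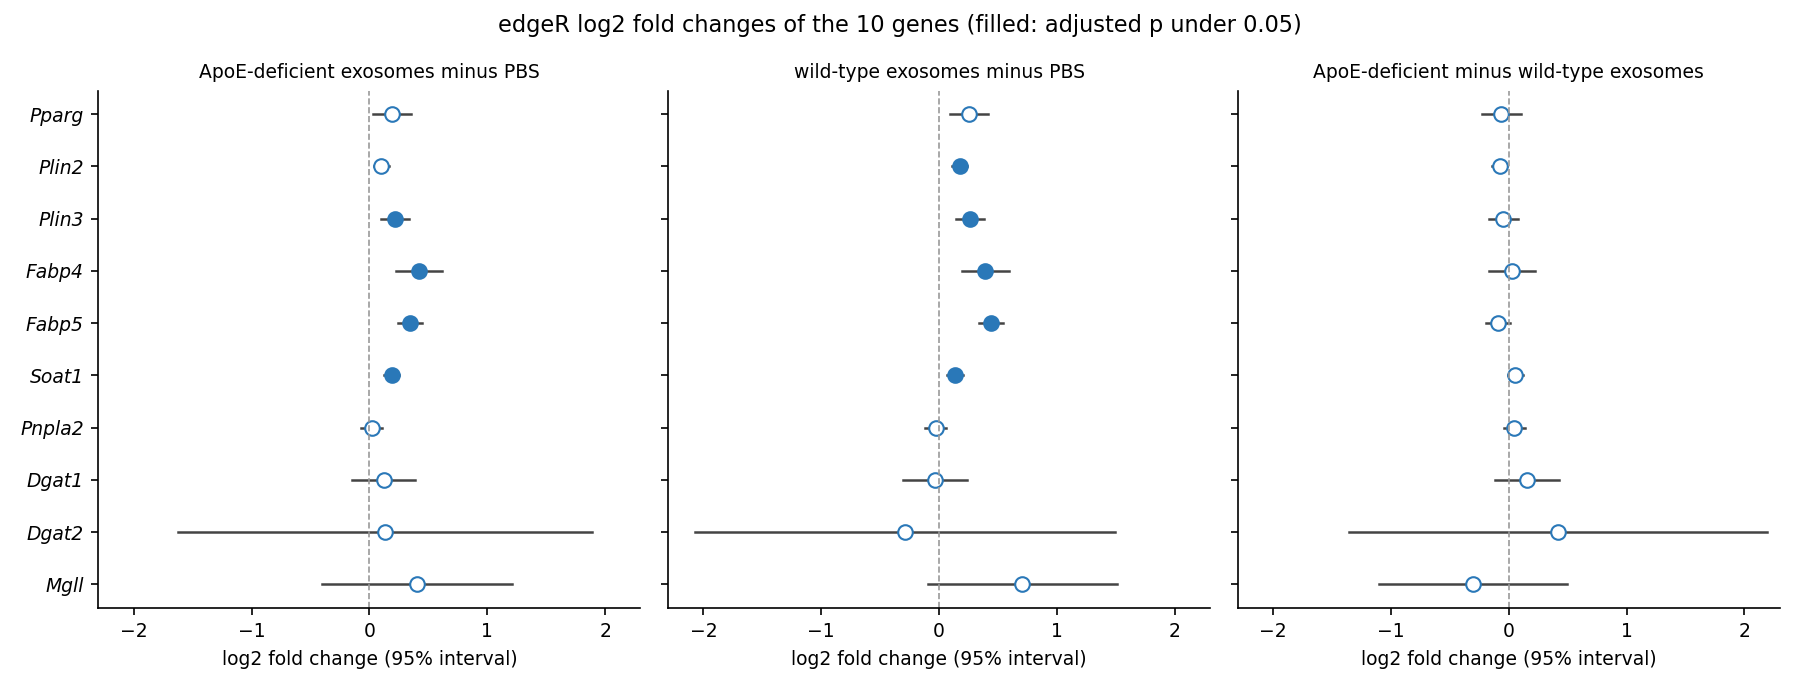
Log2 fold changes of the 10 genes (x axis) in the 3 comparisons (panels), with 95% intervals as lines and filled points where the edgeR adjusted p was under 0.05. Filled points lie to the right of 0 for 4 genes after ApoE-deficient exosomes and for 5 after wild-type exosomes, there are none between the exosomes, and the lines of Dgat2 and Mgll are the longest.

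The 10 genes were chosen with earlier results of these data known. The shares over all genes beside them are therefore a description, not a test of the group. Against PBS, 4 of the 10 genes were higher and 0 lower after ApoE-deficient exosomes, where 1.82% of all genes tested were higher and 2.41% lower. After wild-type exosomes 5 were higher and 0 lower, against 1.93% and 2.18% of all genes. The median log2 fold change of the 10 genes was 0.19 for ApoE-deficient and 0.21 for wild-type exosomes, beside -0.000523 and -0.00335 over all genes tested. All libraries lay above those of PBS for 5 of the 10 genes after ApoE-deficient exosomes (9.06% of all genes) and for 6 after wild-type exosomes (8.60% of all genes). Fabp4, Fabp5, Plin3 and Soat1 passed in both comparisons, which share their PBS libraries and so are not independent. Without replicate 2 of PBS, 2 genes passed for ApoE-deficient exosomes (Fabp5 and Soat1) and 3 for wild-type exosomes (Plin2, Fabp5 and Pparg). Of these, Pparg had not passed with all libraries, and Fabp5 alone passed in both comparisons. Without replicate 3 of wild-type exosomes, 3 passed for wild-type exosomes (Plin2, Fabp5 and Soat1). In the F test among the 3 groups, 5 of the 10 genes passed (Plin2, Plin3, Fabp4, Fabp5 and Soat1), against 5.28% of all genes, and 3 passed without replicate 2 of PBS, where the edgeR adjusted p was 0.144 for Plin3 and 0.0972 for Fabp4. That of Plin3 was 0.0614 without replicate 1 of PBS.

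The comparison between the exosomes set those of ApoE-deficient donors against those of wild-type donors. Whether libraries of a group had separate exosome preparations is not stated. Donor genotype therefore cannot be told apart from a difference between preparations. None of the 10 genes passed in edgeR, DESeq2 or limma-voom, while 0.695% of all genes tested passed in edgeR in either direction. DESeq2 gave no adjusted p there for the low counts of Dgat2 and Mgll. The median log2 difference of the 10 genes was -0.0070, beside 0.000193 over all genes. Plin2 alone had an unadjusted p under 0.05, at -5.06% after ApoE-deficient relative to wild-type exosomes (-9.22% to -0.716%; edgeR unadjusted p = 0.0242, adjusted p = 0.469). The libraries did not overlap for Fabp5, lower after ApoE-deficient exosomes, and for Soat1, higher after them, and groups that do not overlap were found for 14.0% of all genes. The difference was -6.23% for Fabp5 (-12.7% to 0.689%; edgeR adjusted p = 0.672) and 3.83% for Soat1 (-0.684% to 8.55%; edgeR adjusted p = 0.716). For Plin3 it was -3.06% (-10.8% to 5.36%), for Fabp4 2.15% (-10.8% to 17.0%), for Pparg -4.26% (-14.5% to 7.23%) and for Pnpla2 3.43% (-2.94% to 10.2%). The interval of Dgat1, -7.80% to 34.2%, is wider, and those of Mgll (-53.2% to 40.6%) and Dgat2 (-60.9% to 358%) set little limit on a difference.

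Per length, Plin2 was the most abundant of the 10 transcripts, at 399 ± 17.2 RPKM after PBS, 5.31 times the level of Pnpla2 (75.2 ± 5.91 RPKM). Soat1 followed at 62.8 ± 1.57 RPKM. Plin3 and Fabp5, at 29.3 ± 3.18 and 28.8 ± 1.87 RPKM, overlapped between libraries after PBS. After either kind of exosome every Fabp5 library was above every Plin3 library in RPKM, at 39.0 ± 1.33 against 35.2 ± 2.48 after wild-type exosomes and 36.6 ± 0.473 against 34.1 ± 1.19 after ApoE-deficient exosomes. For wild-type exosomes they nearly met, with the lowest Fabp5 library at 38.04 RPKM and the highest Plin3 library at 38.01 RPKM. Pparg was at 14.6 ± 1.28, Fabp4 at 7.36 ± 0.715 and Dgat1 at 5.10 ± 0.438 RPKM after PBS, each without overlap with its neighbours. Mgll and Dgat2, at 0.308 ± 0.171 and 0.162 ± 0.0613 RPKM, overlapped after PBS. In RPKM, Dgat1 lay above Dgat2 in every library. The length used joins the exons of all annotated transcripts of a gene. For Fabp4 it was 4489 bases, its whole annotated span, for Fabp5 3567 bases and for Soat1 9791 bases. If most RNA of such a gene came from shorter transcripts, its RPKM would be too low. The places of Fabp4, Fabp5 and Soat1 in the order therefore depend on this length. After PBS, Soat1 was above Pnpla2 in CPM (614.6 against 227.2) and below it only in RPKM.

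**Figure D3:**
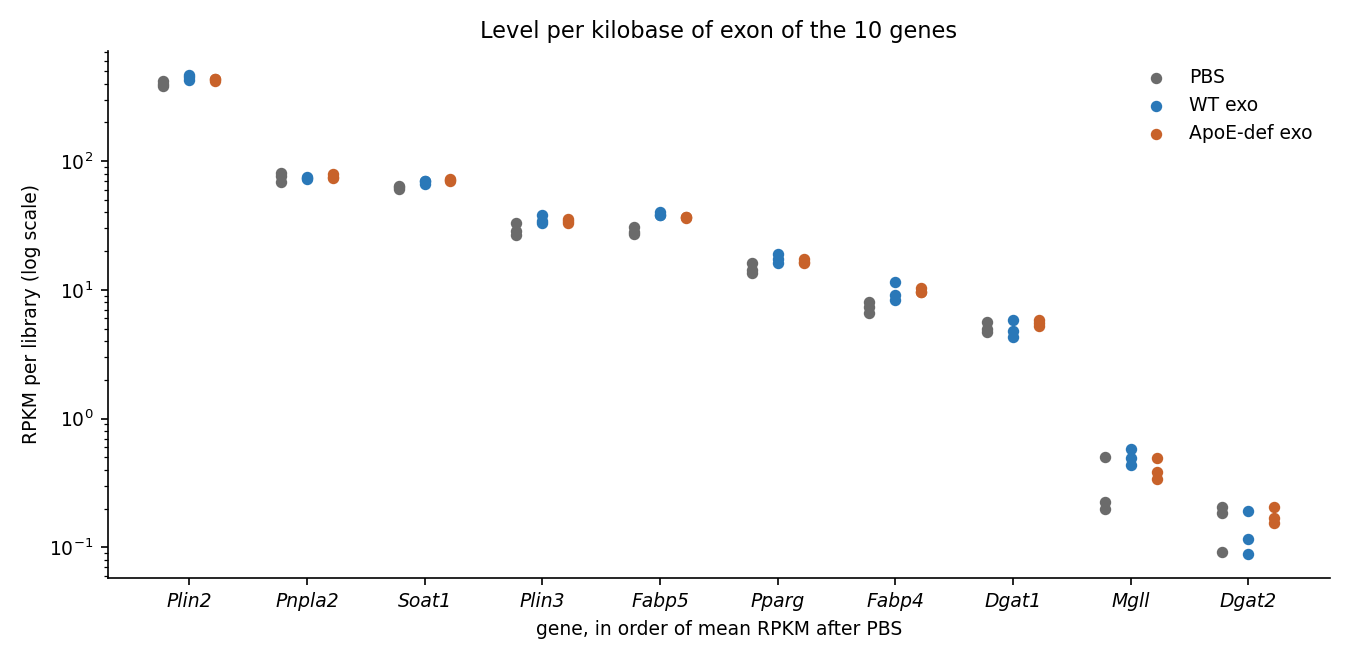
RPKM of the 10 genes in each library (y axis, log scale), in order of the mean after PBS (x axis), with colours for the treatments. Plin2 is highest near 400 RPKM, Plin3 and Fabp5 overlap after PBS, and Mgll and Dgat2 lie below 1 RPKM in every library.

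By the Pearson correlation of log2 CPM over the 9 libraries, the genes most like Pparg were Mapk6 (r = 0.970), Tnfsfm13 (0.967) and Hmga2 (0.934), and of the other 9 genes Fabp5 was closest to it (0.901). Those most like Plin2 were Aplp2 (0.977), Plau (0.976) and Pdia6 (0.968), and Fabp5 had 0.840. These values describe libraries that fall into 3 treatment groups and share their scaling, and they carry no test.

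Other genes of the pathway were followed as lists. Of all genes tested, 1.82% were higher and 2.41% lower for ApoE-deficient exosomes, and 1.93% and 2.18% for wild-type exosomes. Of 16 further tested genes of the droplet coat, assembly and lipolysis (25 listed, of which 9 were removed by the filter), 1 was higher and 0 lower with either kind of exosome. This was Nceh1, which encodes a neutral cholesteryl ester hydrolase. It was at 624.7, 639.4 and 617.7 CPM after PBS, 721.8, 695.8 and 721.3 CPM after wild-type exosomes and 687.0, 699.9 and 720.9 CPM after ApoE-deficient exosomes, so all exosome libraries lay above all PBS libraries. The increase of Nceh1 was 13.6% (edgeR adjusted p = 0.000109) and 12.0% (edgeR adjusted p = 0.000506), of the size measured for Soat1, the enzyme of the opposite reaction. The median log2 fold change of this list was -0.0087 for ApoE-deficient and -0.024 for wild-type exosomes.

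Of 16 further genes of glycerolipid and cholesteryl ester synthesis (21 listed, 5 removed), 0 passed for ApoE-deficient exosomes in edgeR, DESeq2 or limma-voom, with 1 at an unadjusted p under 0.05 in edgeR. For wild-type exosomes 2 were lower: Lpin2, a phosphatidate phosphatase, at -11.8% (edgeR adjusted p = 0.0192), and Acsl4, which activates polyunsaturated fatty acids, at -12.9% (edgeR adjusted p = 0.0362). The call of Lpin2 ended without replicate 1 or 2 of PBS (edgeR adjusted p = 0.156 and 0.0529) and without replicate 3 of wild-type exosomes (0.205). That of Acsl4 ended in 7 of 16 alternatives, with edgeR adjusted p values of 0.262 without replicate 1 of PBS, and 0.173 and 0.110 without replicate 2 and 3 of wild-type exosomes. The median log2 fold change of the list was -0.028 for ApoE-deficient and 0.036 for wild-type exosomes.

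Of 12 further fatty acid binding and uptake genes (20 listed, 8 removed), Lpl fell with both exosomes and Cd36 passed for ApoE-deficient exosomes. Lpl encodes lipoprotein lipase, which releases fatty acids from lipoproteins. It was at 2988, 3007 and 3043 CPM after PBS, 2465, 2613 and 2650 CPM after wild-type exosomes and 2650, 2887 and 2840 CPM after ApoE-deficient exosomes, with every exosome library below every PBS library. Lpl fell by 14.5% after wild-type exosomes (edgeR adjusted p = 1.85e-06), a call that held in every alternative. After ApoE-deficient exosomes it fell by 7.33% (edgeR adjusted p = 0.0201), and that call ended without replicate 1 of those exosomes (edgeR adjusted p = 0.261) and without replicate 2 or 3 of PBS (0.0673 and 0.0651). Cd36, the fatty acid translocase gene, was 8.63% higher after ApoE-deficient exosomes with overlapping libraries (edgeR adjusted p = 0.0498). The call of Cd36 ended in 8 of 16 alternatives, with edgeR adjusted p values of 0.169 and 0.476 without replicate 2 and 3 of those exosomes and 0.0600 without replicate 2 of PBS.

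None of 15 further nuclear receptor genes and partners of PPAR-gamma (18 listed, 3 removed) passed in any comparison in edgeR, with 1 at an unadjusted p under 0.05 in each. With DESeq2 1 passed for wild-type exosomes, the transcription factor gene Cebpb at a log2 fold change of -0.25 (adjusted p = 0.0431; edgeR adjusted p = 0.0634), named after its values were seen. With limma-voom 0 passed in each comparison. Their median log2 fold change was -0.022 for ApoE-deficient and -0.028 for wild-type exosomes. Rxra, an RXR gene, had a log2 fold change of 0.04 for both (edgeR adjusted p = 0.815 and 0.764). Of 17 further PPAR target genes (25 listed, 8 removed), which include Lpl and Cd36 again, 1 was higher and 2 lower for ApoE-deficient exosomes, and 0 were higher and 2 lower for wild-type exosomes. Besides these, Ucp2, a mitochondrial carrier gene, fell by 15.1% after ApoE-deficient exosomes (edgeR adjusted p = 1.33e-07) and by 10.2% after wild-type exosomes (edgeR adjusted p = 0.000194). The PPAR target list held genes that moved in both directions, and its median log2 fold change was 0.0049 for ApoE-deficient and 0.041 for wild-type exosomes.

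Between the exosomes, 1 list gene was higher and 1 lower after those of ApoE-deficient donors in edgeR. DESeq2 called 5 list genes, adding Lpl, Ucp2 and Cpt1a, and limma-voom called 4, adding Lpl and Ucp2. The 5 lists held 16, 16, 12, 15 and 17 tested genes, with some genes repeated. Of all 13815 genes tested, 96 passed between the exosomes in edgeR, 157 in DESeq2 and 125 in limma-voom. Cpt1a, which encodes the carnitine acyltransferase of mitochondrial fatty acid import, is named after its values were seen. Lipa, the lysosomal acid lipase gene, was at 3237 ± 99.9 CPM after ApoE-deficient and 2975 ± 87.7 CPM after wild-type exosomes (8.80% higher, edgeR adjusted p = 0.0159; n = 3 libraries each). Tgm2, a transglutaminase gene, was at 538 ± 13.1 CPM after ApoE-deficient and 638 ± 38.8 CPM after wild-type exosomes (15.6% lower, edgeR adjusted p = 0.000183). For Tgm2, 21.8% of the exon length is shared with exons of other genes. Lpl was 8.39% higher after ApoE-deficient than after wild-type exosomes and missed the threshold (edgeR adjusted p = 0.0501).

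**Figure D4:**
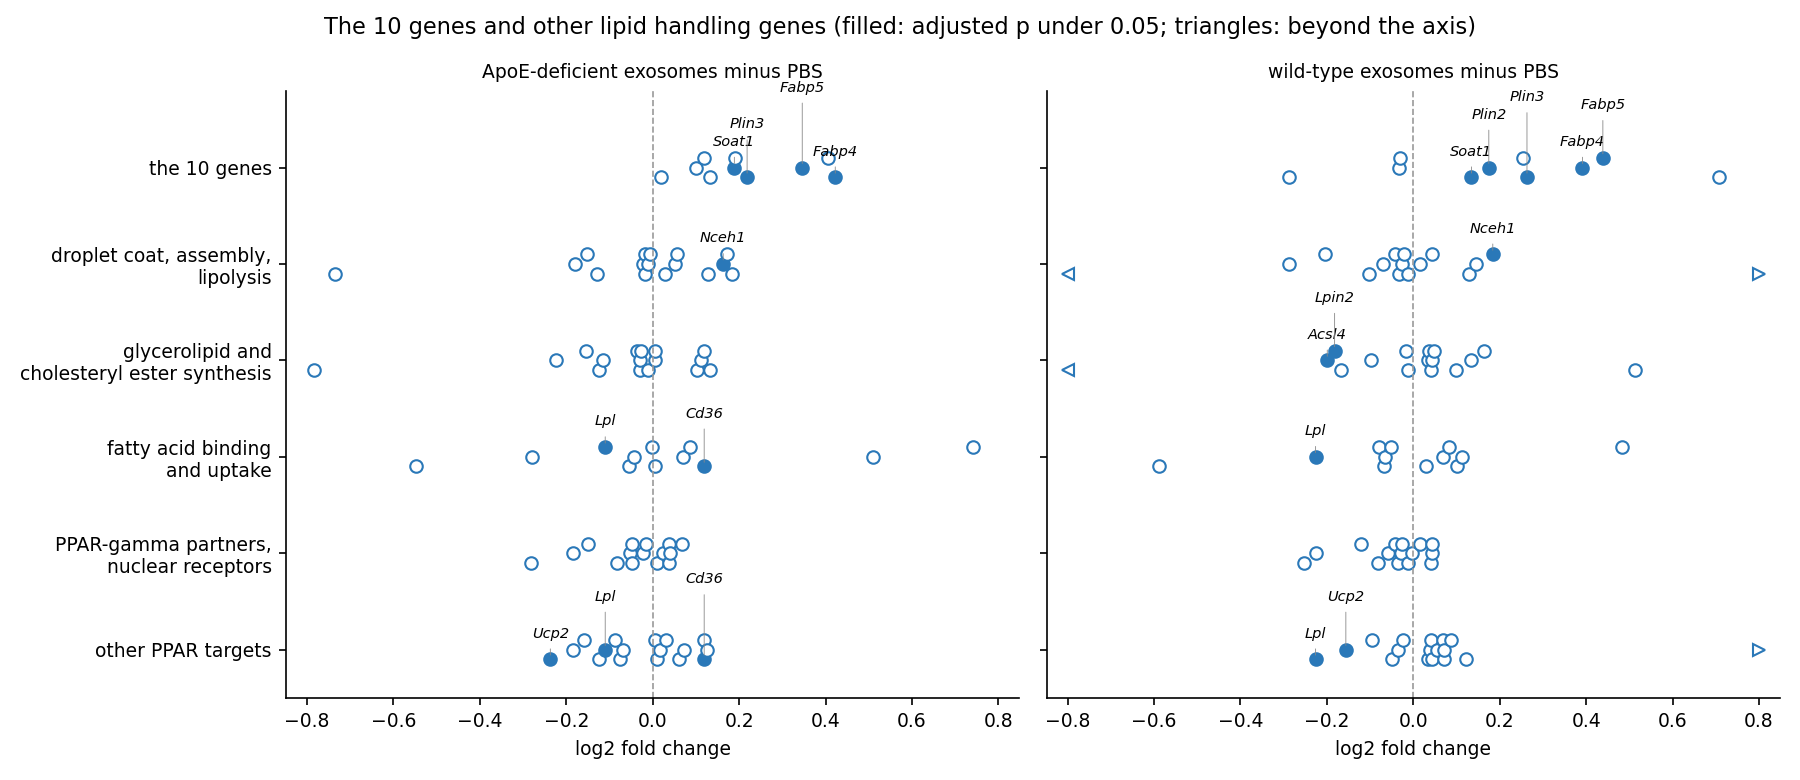
Log2 fold changes against PBS (x axis) of the 10 genes and of the tested genes of 5 further lipid lists (y axis), for ApoE-deficient exosomes on the left and wild-type exosomes on the right. Filled, named points have an edgeR adjusted p under 0.05, and triangles stand for values beyond the axis. Named points of the 10 genes lie to the right of 0 in both panels, whereas Lpl and Ucp2 lie to the left.

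The macrophage identity given in the labels was checked against marker genes. All 10 macrophage markers (Adgre1, Cd68, Csf1r, Itgam, Mertk, Fcgr1, Lyz2, Cd14, C1qa and C1qb) were tested. After ApoE-deficient exosomes 8 passed, all 8 lower, where 2.41% of all genes tested were lower. After wild-type exosomes 9 passed, 8 of them lower and Cd68 higher, where 2.18% of all genes were lower and 1.93% higher. Between the exosomes 3 passed, all 3 lower after those of ApoE-deficient donors, where 0.695% of all genes passed in either direction. The summed level of the 10 macrophage markers was 24900 to 26200 CPM after PBS, 23000 to 23700 CPM after wild-type exosomes and 22600 to 23600 CPM after ApoE-deficient exosomes. Its part in the increases of Fabp4, Fabp5, Soat1, Plin2 and Plin3 was not tested. Since Fabp4 and Pparg are also adipocyte genes, adipocyte markers were read as well. Adipoq, Lep, Cidec, Cfd and Retn were listed at 0 in all 9 libraries and Plin1 had 0 to 7 counts, with a summed level of at most 0.198 CPM. The other droplet coat genes Plin4 and Plin5 were at 0 in all libraries. Of the neutrophil and stromal markers, 6 and 4 were tested and 0 passed in edgeR or DESeq2, with at most 1 of each list at an unadjusted p under 0.05 in a comparison in edgeR. With limma-voom 2 neutrophil markers passed for ApoE-deficient exosomes against PBS. The neutrophil sum was 23.1 to 32.4 CPM after PBS, 12.1 to 32.9 CPM after wild-type exosomes and 3.83 to 20 CPM after ApoE-deficient exosomes, and the stromal sum 8.77 to 63.4, 16.6 to 29.4 and 5.68 to 24.5 CPM in the same order. Their part in the results was not tested. Markers of dendritic cells, lymphocytes, erythroid cells, mast cells and basophils summed to at most 1.15 CPM per list in any library.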

How the data were processed

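Total RNA was column-extracted and made into mRNA-seq libraries, per the labels' protocols. The deposited table gives each library's raw read counts by Ensembl gene ID. The submitters' processing notes name STAR 2.7.5c and GRCm38, but not the counting tool, its strand setting or the annotation release. All 55536 IDs matched GENCODE M21, which gave symbols, positions and exon lengths, and no row held unassigned reads.

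Counts were tested with edgeR 4.0.16 in R 4.3.3: filterByExpr at a minimum count of 10, TMM scaling, and a robust quasi-likelihood fit with the group as its only term over all 9 libraries, tested on simulated data beforehand. P-values were adjusted by Benjamini-Hochberg over 13815 genes, at a threshold of 0.05. The biological coefficient of variation was 12%, and no 2 libraries of a group agreed within sampling noise. Intervals of fold changes are unadjusted and at 95%. Alternatives were RLE scaling, DESeq2 1.42.0, limma-voom (limma 3.58.1), no filter, at least 1 CPM in 3 libraries, only the 6 libraries compared, a replicate block, and leaving out each library. Near-identical copies were searched among the GENCODE M21 transcripts with blastn 2.17.0 (at least 90% identity over 300 bases). The 10 genes, the lists and the tests were chosen with earlier results of these data known. All 10 genes are named, together with each list gene that passed and the 3 genes most correlated with Pparg and with Plin2.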

Additional observations from a re-analysis of the deposited data

Results flagged for a closer look

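In the lipid lists, the effects of both exosomes differed by a direct edgeR test for 2 genes. DESeq2 called 5 list genes and limma-voom 4, these 2 among them, with Lpl and Ucp2 by both tools and Cpt1a by DESeq2. Of all 13815 genes tested, 96 passed in edgeR, 157 in DESeq2 and 125 in limma-voom. Lipa, the lysosomal acid lipase gene, had a log2 difference of 0.1217 (SE 0.0272) between ApoE-deficient and wild-type exosomes (edgeR adjusted p = 0.0159), with a log2 fold change against PBS of 0.05 and -0.07, neither of which passed. That call ended without replicate 1 or 3 of ApoE-deficient exosomes (edgeR adjusted p = 0.194 and 0.151) and without replicate 2 or 3 of wild-type exosomes (0.188 and 0.0919). Tgm2, a transglutaminase gene, had a log2 difference of -0.2447 (SE 0.0382; edgeR adjusted p = 0.000183), which held in every alternative, with -0.12 and 0.12 against PBS, neither of which passed (edgeR adjusted p = 0.0593 and 0.0674).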

How the results depend on the processing

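Of the fold changes of the 10 genes, and of the list genes in the comparisons where they passed, under the alternatives, 594 kept direction and side of the threshold, 36 lost a call, 8 gained one and 10 reversed. The 10 reversals were small differences that had not passed, each when a library was left out. Over those runs the log2 fold change of Pnpla2 ranged from -0.041 to 0.067 for ApoE-deficient and from -0.090 to 0.018 for wild-type exosomes, that of Dgat1 for wild-type exosomes from -0.17 to 0.066, and that of Dgat2 for ApoE-deficient exosomes from -0.15 to 0.35. Between the exosomes it ranged from -0.083 to 0.014 for Plin3 and from -0.064 to 0.18 for Fabp4. The causes were not tested. When a library was left out, 2 to 5 of the 10 genes passed for ApoE-deficient exosomes, 3 to 6 for wild-type exosomes, 0 between the exosomes and 3 to 5 among the 3 groups. Over all genes, 421 to 586 (585 with all libraries), 408 to 536 (568), 52 to 109 (96) and 538 to 708 (730) passed in the same order. DESeq2 gave 157 genes between the exosomes. Same-numbered replicates did not deviate together (r from -0.035 to 0.0402, best with their own number in 3 of 9 pairs). Deviations from means of 3 libraries cannot exclude shared mice or days, and the labels do not say. The number was therefore not used as a pairing in the main test. With the replicate block, 662, 669, 144 and 806 genes and 5, 5, 0 and 5 of the 10 genes passed, Plin2 for ApoE-deficient exosomes among them (edgeR adjusted p = 0.00957). Depth limits Dgat2 and Mgll, with at most 22 and 90 counts per library.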
